A study of Mus musculus with 6 samples.

Results

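The SLC25 family is the set of carrier proteins that move metabolites across the inner mitochondrial membrane. Its members were taken as all rows of the count tables whose gene symbol is Slc25a followed by a number, which gave 47 of the 27179 genes listed. No row had to be left out as a pseudogene by its symbol, and 41 of the 47 had enough counts to be tested among 16483 genes. RNA-seq was performed on quadriceps muscle of 3 control and 3 miDrp1KO mice. The miDrp1KO mice carried floxed alleles of Dnm1l, the gene of the fission protein Drp1, together with HSA-MerCreMer, a Cre recombinase that is driven by the human ACTA1 promoter in skeletal muscle fibres and needs tamoxifen (TM) to act. The control mice are labelled Control f/f, for floxed alleles, and whether they carried Cre is not given in the sources used here. Mice of both groups were males on normal chow, were injected with TM at 3 months of age, and came from a floxed line backcrossed to C57BL/6J. Tissue was taken 3 weeks post–Dnm1l deletion. The muscle was sequenced whole, so nuclei of other cell types, in which Cre does not act, contribute RNA, and fewer cells of a type cannot be told apart from less RNA per cell.

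Nearly every SLC25 protein is folded in the same way, from a repeated unit that forms a bundle of helices around a central binding site, and opens in turn to the intermembrane space and to the matrix. The carriers export ATP and import ADP, phosphate, acylcarnitines, amino acids, iron and cofactors, and those of the malate-aspartate shuttle bring reducing equivalents from glycolysis into the matrix. Skeletal muscle, with its high demand for ATP, is known for abundant Slc25a4, the ADP/ATP carrier of heart and muscle. The comparison asks whether the transcripts of this family differed between muscles with and without deletion of Dnm1l at a time before overt atrophy.

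The libraries held 13989588 to 62042255 counts. Ribosomal RNA genes took 1.48 to 24.4% of them, and Spearman correlations between libraries were at least 0.960. Rows with a symbol beginning with mt- summed to 0 counts in every library. Whether such rows exist, or genes of the mitochondrial genome stand under other symbols, was not checked, so no level is given for them. Levels below are counts scaled to a common library size with edgeR's TMM factors (CPM), and levels of different genes are compared only per kilobase of exon (RPKM). The deleted gene Dnm1l stood at 156, 114 and 140.3 CPM in control 1, 2 and 3 and 70.6, 81.3 and 66.2 CPM in miDrp1KO 1, 2 and 3, so every miDrp1KO library lay below every control library, as the labels require (log2 fold change −0.91, adjusted p = 0.362 from edgeR). Defining markers of skeletal muscle were abundant in all libraries. Their fibre type balance varied: the summed level of 8 slow fibre markers was 480, 72.9 and 107 CPM in control 1, 2 and 3 and 99.5, 793 and 713 CPM in miDrp1KO 1, 2 and 3. All 8 slow markers had a higher mean in miDrp1KO, with 0 of 8 at an unadjusted p under 0.05. All 10 fast fibre markers had a lower mean, 2 of them at an unadjusted p under 0.05, and their summed level was 156220 to 172000 CPM in control against 76372 to 131080 CPM in miDrp1KO. The 6 adipocyte markers were also lower on average, 3 at an unadjusted p under 0.05, with a summed level of 186 to 395 CPM in control and 70.5 to 181 CPM in miDrp1KO. Of 6 macrophage markers 4 were higher and 2 lower, 2 of them at an unadjusted p under 0.05, and their sums overlapped (85.3 to 154 CPM against 122 to 137 CPM), as did those of red blood cell, fibroblast, endothelium and Schwann cell markers. No marker measured was at 0 in a library. Values with the slow fibre score of each library as a covariate are given below, and the part of the other marker differences in the values was not tested.

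No SLC25 member passed the test. The quasi-likelihood test of edgeR, with p adjusted by the Benjamini-Hochberg method over all genes, called 0 of 41 members, where 0.0121% of all genes tested were called (Esr1 and Unc5a, named here after their values were seen). At an unadjusted p under 0.05 there were also 0 of 41 members, where the share over all genes was 10.9% (4.68% higher and 6.22% lower in miDrp1KO). The lowest unadjusted p of a member was 0.0873, and adjusted p ran from 0.524 to 0.997. DESeq2, whose independent filtering left an adjusted p for 4431 genes and 13 members, called 0 of these members and 2.55% of these genes. Limma voom called 0 members, and neither tool had a member at an unadjusted p under 0.05. The direction of a member was loosely held by 3 libraries a group: leaving out 1 library changed the sign of the log2 fold change for 24 of the 41 members and moved it by over 1.5 times for 39, all but Slc25a32 and Slc25a53. In miDrp1KO 24 members had a higher and 17 a lower mean, where 48.0% of all genes were lower. The median log2 fold change of the members was 0.04, beside 0.02 for all genes, and single members ranged from −0.69 for Slc25a18 to 0.81 for Slc25a53.

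The intervals bound the sizes of change that remain compatible with these mice. The 95% interval of the log2 fold change lay within 2-fold in either direction for 32 of 41 members (78.0%), where 61.7% of all genes had such an interval. Within 1.5-fold it lay for 14. Only 3 members had a log2 fold change beyond 0.5 in size, and these were Slc25a18, Slc25a34 and Slc25a53. The median standard error of the members was 0.24 on the log2 scale. Among the 9 carriers of cofactors and nucleotides all 9 intervals were within 2-fold, whereas among the 4 members with no settled substrate that were tested 2 were.

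**Figure D1:**
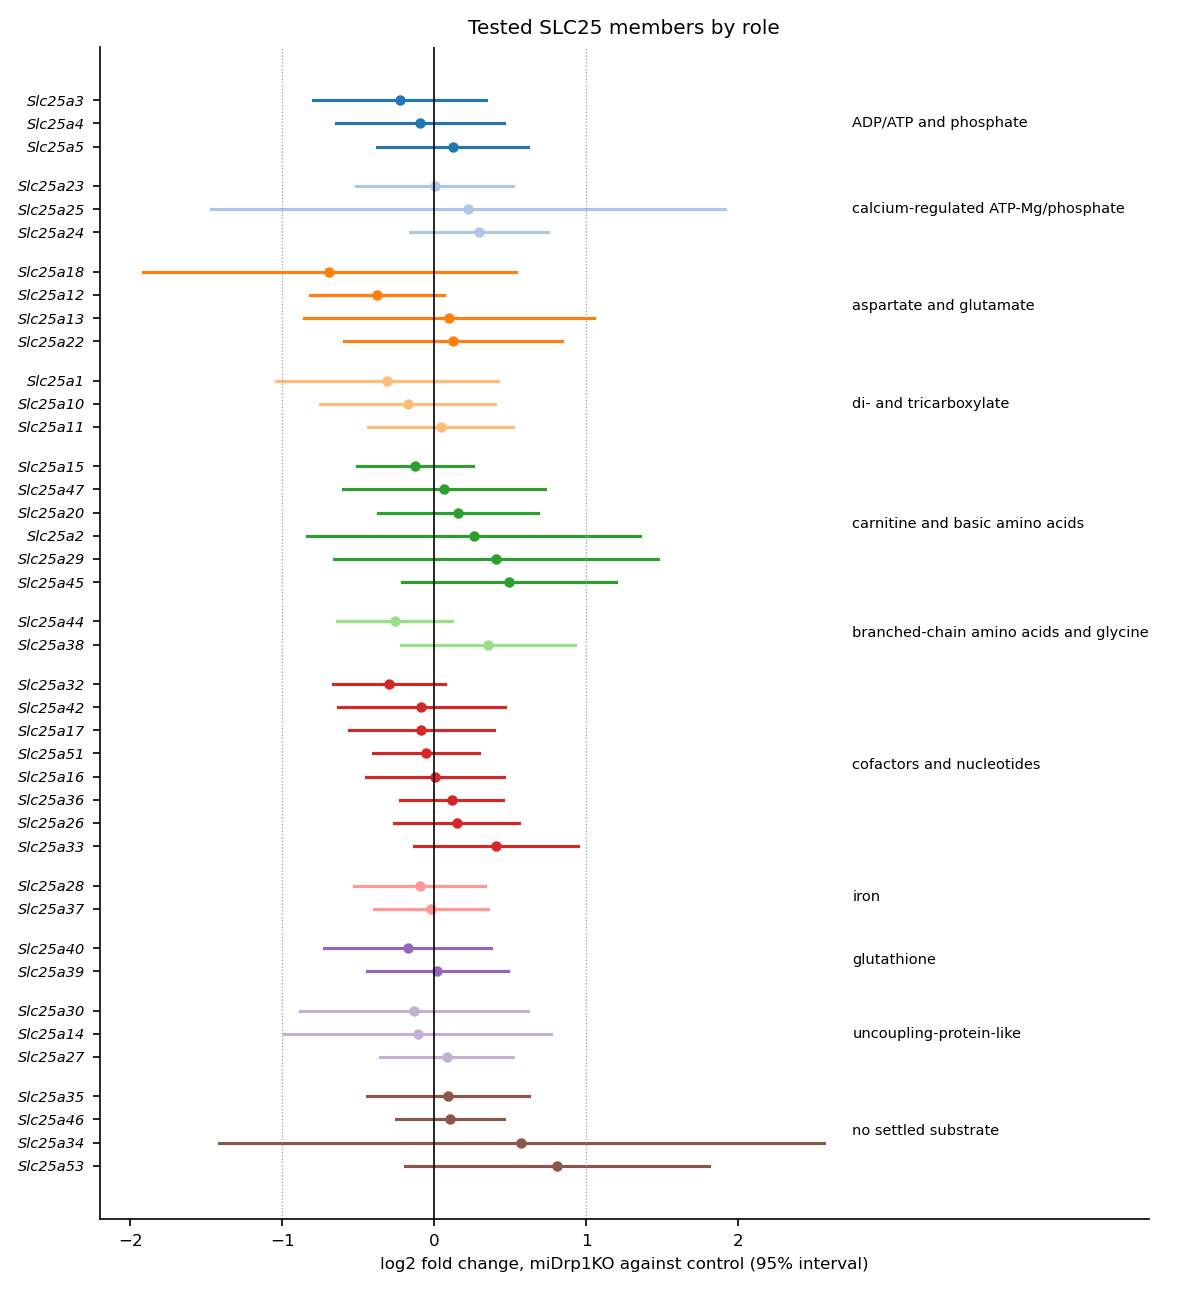
The log2 fold change of miDrp1KO against control (horizontal axis) is drawn for the tested SLC25 members reported here, with bars for the 95% interval, grouped and coloured by the substrate of the carrier; dotted lines mark a 2-fold change. Every interval drawn crosses 0, and the widest belong to Slc25a34 and Slc25a25.

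Levels per kilobase were dominated by a single carrier. Slc25a4 (Entrez 11739, chr8:46207168-46211062 on GRCm38) had a mean of 1709 ± 190.3 RPKM (SD, n = 3) in control and 1601 ± 212 RPKM (SD, n = 3) in miDrp1KO. It made up 80.9 to 82.9% of the summed RPKM of all 47 members in the 6 libraries. Next in control came the phosphate carrier Slc25a3 at 64.9 ± 16.9 RPKM (SD, n = 3), the aspartate/glutamate carrier Slc25a12 at 52.8 ± 10.1 RPKM (SD, n = 3) and the oxoglutarate carrier Slc25a11 at 50.6 ± 7.02 RPKM (SD, n = 3), which did not differ from each other beyond these SDs. The carnitine/acylcarnitine carrier Slc25a20, at 24.8 ± 7.03 RPKM (SD, n = 3), and Slc25a46, at 23.6 ± 1.26 RPKM (SD, n = 3), formed the next pair and again lay within their spread. Then followed 5 members between 10 and 20 RPKM, among them Slc25a39, Slc25a28, Slc25a51 and Slc25a5. A further 22 members had between 1 and 10 RPKM and 14 less than 1 RPKM. The summed level of the family was 3838 to 4911 CPM and overlapped between the groups, also without Slc25a4 (963 to 1239 CPM).

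**Figure D2:**
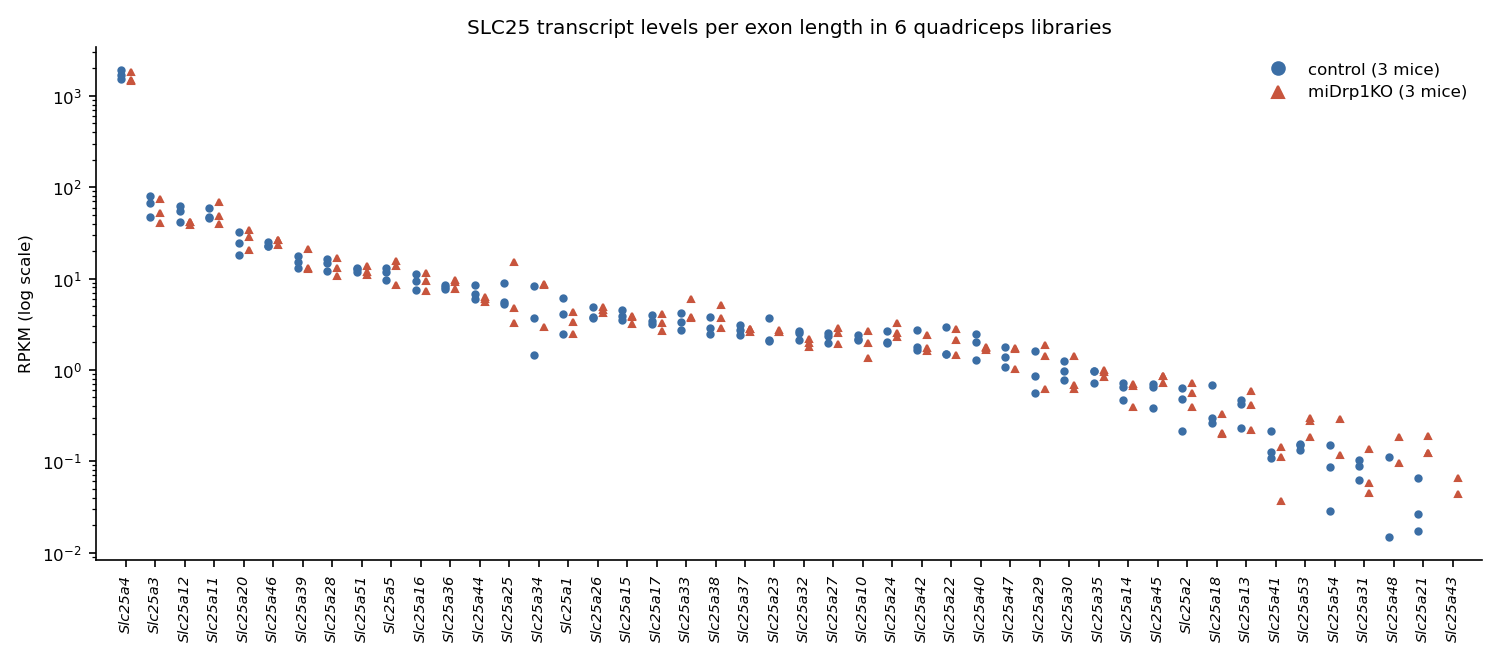
Levels of the SLC25 members reported here (RPKM on a log scale) are shown in each of 3 control and 3 miDrp1KO libraries, ordered by the control mean; libraries with 0 counts are not drawn. Slc25a4 stands above 1000 RPKM in every library, all others below 100, and the groups overlap for all members drawn but Slc25a21, Slc25a45 and Slc25a53.

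The 250 bases upstream of the annotated start are shown for 4 members. Slc25a4 and Slc25a5 are given because they encode carriers of the same reaction at very different levels in this muscle, and Slc25a34 and Slc25a25, chosen after their values were seen, because they varied most between libraries among the members above 1 RPKM. The windows are from RefSeq on GRCm38.p6, written 5′ to 3′ on the strand of the gene and ending at the base before the start: chr8:46211063-46211312 (minus strand), chrX:36795347-36795596 (plus strand), chr4:141623835-141624084 (minus strand) and chr2:32424067-32424316 (minus strand). The last 2 lie at a start inside the span of the gene. Capitals mark an ETS core in Slc25a4, a GC box read on the other strand in Slc25a5, the element of estrogen-related receptors read on the other strand in Slc25a34, and a cAMP response element in Slc25a25.
Slc25a4: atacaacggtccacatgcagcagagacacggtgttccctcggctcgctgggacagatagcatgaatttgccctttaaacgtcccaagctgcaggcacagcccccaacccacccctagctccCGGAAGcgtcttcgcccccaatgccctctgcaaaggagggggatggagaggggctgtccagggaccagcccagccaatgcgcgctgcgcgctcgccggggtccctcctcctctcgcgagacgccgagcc
Slc25a5: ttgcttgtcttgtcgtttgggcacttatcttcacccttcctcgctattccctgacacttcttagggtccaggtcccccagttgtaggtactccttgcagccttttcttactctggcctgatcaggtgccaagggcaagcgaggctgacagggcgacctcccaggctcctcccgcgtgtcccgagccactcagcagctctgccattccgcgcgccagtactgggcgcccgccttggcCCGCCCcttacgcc
Slc25a34: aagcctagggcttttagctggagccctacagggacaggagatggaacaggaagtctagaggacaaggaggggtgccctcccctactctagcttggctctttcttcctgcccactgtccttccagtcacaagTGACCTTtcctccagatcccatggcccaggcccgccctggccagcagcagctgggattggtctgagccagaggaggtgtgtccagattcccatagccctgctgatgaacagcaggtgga
Slc25a25: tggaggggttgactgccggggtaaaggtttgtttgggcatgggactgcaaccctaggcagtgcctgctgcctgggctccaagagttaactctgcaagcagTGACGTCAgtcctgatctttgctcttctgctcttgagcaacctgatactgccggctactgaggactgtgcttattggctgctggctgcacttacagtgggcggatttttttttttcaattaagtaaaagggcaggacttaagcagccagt
Of the 47 members 36 had such a window in the table, 46 windows in all, and 6 motifs were searched on both strands. AAGGTCA, the element that estrogen-related receptors read, was found for Slc25a34 alone, 119 bases before the start, and in 4.08% of 32851 windows of the genome. TGACGTCA, the cAMP response element, was found for Slc25a25, 150 bases before the start, and for Slc25a36, and in 1.55% of all windows. CGGAAG, the core of ETS sites, was found for 9 members, among them Slc25a4 at 129 bases before the start, and in 13.6% of all windows. GGGCGG, the GC box, was found for 25 members and in 32.7% of windows, and the Slc25a5 window holds it 14 bases before the start. CACGTG, the E-box, was found for 7 members and in 6.02% of windows, and TATAAA for 2 members (Slc25a18 and Slc25a21) and in 12.4%. These are matches of letters, and whether a factor binds there was not measured.

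The carriers of ADP, ATP and phosphate serve oxidative phosphorylation. Slc25a4 stood at 3671, 2941 and 3258 CPM in control 1, 2 and 3 and 2884, 2812 and 3552 CPM in miDrp1KO 1, 2 and 3. The groups overlapped, with miDrp1KO 3 close to the highest control library (log2 fold change −0.09, standard error 0.25, 95% interval −0.65 to 0.46, adjusted p = 0.921 from edgeR). Slc25a5 (Entrez 11740, chrX:36795597-36798808), the ADP/ATP carrier found in most tissues, had 16.1, 12.03 and 14.7 CPM in control and 10.4, 19.2 and 16.9 CPM in miDrp1KO. Its lowest and highest libraries were both miDrp1KO (log2 fold change 0.12, standard error 0.23). Slc25a5 has a processed pseudogene, and how reads with several matches were counted is not given in the sources used here. Per kilobase, Slc25a4 exceeded Slc25a5 by 149 ± 7.58 times (SD, n = 3) in control and 136 ± 41.7 times (SD, n = 3) in miDrp1KO, a ratio that ranged from 94.4 in miDrp1KO 2 to 178 in miDrp1KO 1. Slc25a3 (Entrez 18674, chr10:91116574-91124046), which imports the phosphate that ATP synthase uses, had 157, 91.5 and 130.3 CPM in control and 78.3, 102 and 143 CPM in miDrp1KO (log2 fold change −0.23, standard error 0.26, adjusted p = 0.783 from edgeR). Control 2 and miDrp1KO 1 were the low libraries of their groups, and the value was −0.019 without control 1, −0.43 without control 2, −0.017 without miDrp1KO 1 and −0.46 without miDrp1KO 3. Slc25a31, the ADP/ATP carrier of germ cells, had 28 counts over all 6 libraries and was not tested.

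The calcium-regulated ATP-Mg/phosphate carriers adjust the adenine nucleotide content of the matrix. Slc25a23 had a log2 fold change of 0.00 (95% interval −0.51 to 0.52) and Slc25a24 of 0.29 (95% interval −0.16 to 0.75). Slc25a25 (Entrez 227731, chr2:32414487-32451470), singled out after its values were seen, had 21.9, 36.7 and 23.0 CPM in control and 62.0, 13.5 and 19.7 CPM in miDrp1KO. A single library, miDrp1KO 1, was the highest of all, while miDrp1KO 2 and 3 lay below every control library. Its log2 fold change of 0.22 (standard error 0.65) thus rested on that library and was −0.69 without it (unadjusted p = 0.0284, adjusted p = 0.233 from edgeR). Exons of Slc25a25 overlap those of Naif1 on the opposite strand by up to 379 bases. Slc25a41 had 29 counts in all and was not tested.

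The aspartate and glutamate carriers hold the member with the lowest p. Slc25a12 (Entrez 78830, chr2:71274270-71367781), the aspartate/glutamate exchanger of muscle and brain and a step of the malate-aspartate shuttle, had 392, 265 and 349 CPM in control 1, 2 and 3 and 243, 267 and 265 CPM in miDrp1KO 1, 2 and 3. The 3 miDrp1KO libraries were close to each other and near control 2, the lowest control library, so the groups overlapped by a small margin. The means were 335 ± 64.3 and 258 ± 13.6 CPM (SD, n = 3 each), and the log2 fold change was −0.38 (standard error 0.20, 95% interval −0.82 to 0.07, unadjusted p = 0.0873, adjusted p = 0.524 from edgeR). It was negative in all 16 alternatives, from −0.54 without control 2 to −0.23 without control 1. Slc25a13, which encodes citrin, the exchanger typical of liver, was far lower per kilobase, at 0.377 ± 0.126 RPKM (SD, n = 3) in control, and its log2 fold change was 0.10 (standard error 0.43). Of the glutamate carriers, Slc25a22 had a log2 fold change of 0.12 (standard error 0.32). Slc25a18 (Entrez 71803, chr6:120773504-120794169) had 0.568, 1.31 and 0.4997 CPM in control and 0.632, 0.392 and 0.384 CPM in miDrp1KO. One library, control 2, stood apart, and the log2 fold change, at −0.69 ± 0.56 (standard error; adjusted p = 0.682 from edgeR), was −0.21 without it.

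Of the di- and tricarboxylate carriers, Slc25a11 (Entrez 67863, chr11:70644019-70647531), the oxoglutarate/malate exchanger that completes the malate-aspartate shuttle with Slc25a12, had 100.4, 80.1 and 79.2 CPM in control and 67.4, 83.0 and 117 CPM in miDrp1KO. The highest and the lowest of the 6 libraries were both miDrp1KO (log2 fold change 0.04, standard error 0.22, adjusted p = 0.962 from edgeR). Slc25a1 (Entrez 13358, chr16:17925211-17928219), which exports citrate for the synthesis of fatty acids, had 4.12, 10.2 and 6.86 CPM in control and 4.08, 5.61 and 7.25 CPM in miDrp1KO. Its spread within control was wider than the difference between the means (log2 fold change −0.31, standard error 0.33). The value was −0.56 without control 1, −0.00034 without control 2, −0.10 without miDrp1KO 1 and −0.50 without miDrp1KO 3. The dicarboxylate carrier Slc25a10 had a log2 fold change of −0.17 (standard error 0.26). Slc25a21, the oxoadipate carrier, was below the filter at 1, 1 and 11 counts in control and 7, 14 and 11 counts in miDrp1KO. Scaled, these were 0.0473, 0.0729 and 0.183 CPM and 0.340, 0.343 and 0.528 CPM, with no overlap between the groups (p = 0.1 in a two-sided exact permutation test, which with 3 against 3 mice can give no smaller value). Its exons overlap those of Pax9 on the opposite strand by up to 189 bases.

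Slc25a20 (Entrez 57279, chr9:108662136-108684642), which carries acylcarnitines into the matrix for fatty acid oxidation, had 57.1, 32.0 and 43.7 CPM in control and 37.1, 51.0 and 60.2 CPM in miDrp1KO. Control 2 and miDrp1KO 1 were again the low libraries, and the groups overlapped (log2 fold change 0.16, standard error 0.24, 95% interval −0.37 to 0.68, adjusted p = 0.843 from edgeR). Its relatives for basic amino acids were lower in level. Slc25a29 (Entrez 214663, chr12:108825878-108835876), which carries arginine and lysine, had 3.17, 1.68 and 1.12 CPM in control and 1.22, 2.82 and 3.70 CPM in miDrp1KO, a log2 fold change of 0.41 (standard error 0.48). The groups spanned much the same range, and the value ran from 0.096 without control 3 to 0.96 without control 1. Slc25a45 (Entrez 107375, chr19:5877801-5885768) had 1.04, 1.89 and 1.77 CPM in control and 1.94, 2.35 and 2.30 CPM in miDrp1KO. All 3 miDrp1KO libraries were above all 3 control libraries, with miDrp1KO 1 only just so (log2 fold change 0.49, standard error 0.32, adjusted p = 0.594 from edgeR; exact permutation p = 0.1). The ornithine carriers Slc25a15 and Slc25a2 had log2 fold changes of −0.13 and 0.26, and Slc25a47 of 0.06 (standard errors 0.17, 0.50 and 0.30). Slc25a48 had 37 counts in all, 0 of them in control 2 and miDrp1KO 1, where 0 counts allow a level of up to 0.219 and 0.146 CPM.

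Slc25a44 (Entrez 229517, chr3:88410494-88425141), which imports branched-chain amino acids, had 21.4, 30.8 and 24.1 CPM in control and 21.2, 19.7 and 22.7 CPM in miDrp1KO. The groups overlapped, since miDrp1KO 3 lay above control 1 (log2 fold change −0.26, standard error 0.17, adjusted p = 0.604 from edgeR). Slc25a38, which supplies glycine for heme synthesis, had a log2 fold change of 0.36 (standard error 0.26).

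The 9 carriers of cofactors and nucleotides were all tested, with 5 higher and 4 lower and a median log2 fold change of 0.0045. Slc25a32 (Entrez 69906, chr15:39091230-39112720), which imports flavin adenine dinucleotide and folate, had 12.6, 15.6 and 14.9 CPM in control and 12.8, 11.7 and 10.6 CPM in miDrp1KO. The groups overlapped only through miDrp1KO 1, which lay just above control 1 (log2 fold change −0.30, standard error 0.17, 95% interval −0.67 to 0.07, adjusted p = 0.552 from edgeR). Slc25a33 (Entrez 70556, chr4:149744036-149774267), a carrier of pyrimidine nucleotides, had 7.86, 6.27 and 5.21 CPM in control and 7.14, 7.06 and 11.4 CPM in miDrp1KO. Here miDrp1KO 3 was the high library (log2 fold change 0.41, standard error 0.24, adjusted p = 0.570 from edgeR). Slc25a51, the importer of NAD, had a mean of 55.9 ± 3.08 CPM in control and 53.9 ± 6.59 CPM in miDrp1KO (SD, n = 3 each), with a 95% interval of −0.40 to 0.30 on the log2 scale. Among the others the log2 fold changes were −0.09 for the coenzyme A carrier Slc25a42, −0.08 for the peroxisomal Slc25a17, 0.00 for Slc25a16, 0.11 for the pyrimidine nucleotide carrier Slc25a36 and 0.15 for the S-adenosylmethionine carrier Slc25a26.

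Iron and glutathione carriers serve heme and iron-sulfur cluster synthesis in the matrix. Slc25a28 (Entrez 246696, chr19:43663801-43675006), mitoferrin-2, had 18.8, 25.1 and 23.0 CPM in control and 20.3, 16.5 and 25.9 CPM in miDrp1KO, and the groups overlapped over most of their range (log2 fold change −0.09, standard error 0.20). Slc25a37, mitoferrin-1, known from red blood cell precursors, had a log2 fold change of −0.02 (95% interval −0.40 to 0.35). Slc25a39 (Entrez 68066, chr11:102402969-102408675), the glutathione importer, had 29.4, 22.2 and 25.8 CPM in control and 21.4, 22.1 and 35.2 CPM in miDrp1KO. Only miDrp1KO 3 was outside the control range by more than a small margin (log2 fold change 0.02, standard error 0.21). Its relative Slc25a40 had a log2 fold change of −0.18 (standard error 0.25). The uncoupling-protein-like carriers Slc25a14, Slc25a27 and Slc25a30 had log2 fold changes of −0.11, 0.08 and −0.13, with standard errors of 0.40, 0.20 and 0.34. Each changed sign when 1 library was left out: Slc25a14 ran from −0.24 without control 1 to 0.13 without miDrp1KO 2, Slc25a27 from −0.026 without control 2 to 0.24 without miDrp1KO 3, and Slc25a30 from −0.57 without miDrp1KO 1 to 0.088 without miDrp1KO 2.

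Slc25a46 (Entrez 67453, chr18:31580164-31610532) is the member closest to the machinery of mitochondrial shape: its protein lies in the outer membrane and is known to act in fission and fusion. It had 100.3, 109 and 99.5 CPM in control and 116, 116 and 101 CPM in miDrp1KO, the narrowest range of all members over the 6 libraries. The groups overlapped because miDrp1KO 3 lay below control 2 (log2 fold change 0.10, standard error 0.16, 95% interval −0.25 to 0.46, adjusted p = 0.847 from edgeR), so a 2-fold change in either direction lies outside its interval. Exons of Slc25a46 overlap those of B930094E09Rik on the opposite strand. Slc25a34 (Entrez 384071, chr4:141618819-141623891), a carrier with no settled substrate, had 22.3, 3.86 and 9.83 CPM in control and 7.97, 22.5 and 23.3 CPM in miDrp1KO. The libraries fell into high ones (control 1, miDrp1KO 2 and 3) and low ones (control 2 and 3, miDrp1KO 1) across genotypes, over a 6.03-fold range (log2 fold change 0.57, standard error 0.76, 95% interval −1.42 to 2.56). Its value was 0.15 without control 2 and 1.37 without control 1. Slc25a53 (Entrez 67062, chrX:136981116-137038302) had 0.521, 0.510 and 0.450 CPM in control and 0.923, 1.005 and 0.624 CPM in miDrp1KO. These levels rest on 118 counts in all, and every miDrp1KO library was above every control library (log2 fold change 0.81, standard error 0.45, adjusted p = 0.548 from edgeR; exact permutation p = 0.1). Slc25a35 had a log2 fold change of 0.09 (standard error 0.24). Slc25a54 had 36 counts in all, and Slc25a43 had 0 counts in control and 1, 3 and 0 counts in miDrp1KO 1, 2 and 3, so no fold is given.

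Among the tested members the groups did not overlap for 2 (Slc25a45 and Slc25a53), both higher in miDrp1KO, and for 0 in the lower direction. Over all genes tested the groups did not overlap for 18.0%, with 7.67% higher and 10.3% lower. The members' share was thus below that of all genes, and both members were low in level. Exons of 11 members overlap another gene in the GRCm38 annotation, on the opposite strand for all but Slc25a51. The library kit keeps the strand, but the strand setting of the counting is not given in the sources used here, so their counts, among them those of Slc25a10, Slc25a21, Slc25a23, Slc25a25, Slc25a26, Slc25a33, Slc25a35, Slc25a37, Slc25a46 and Slc25a51, are uncertain by the reads of those neighbours.

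Several members shared a pattern over libraries rather than over genotypes. This pattern was chosen after the values were seen. In 13 of 41 members (31.7%) control 2 was the lowest control and miDrp1KO 1 the lowest miDrp1KO library, where 17.1% of all genes had that order. They were Slc25a2, Slc25a3, Slc25a5, Slc25a10, Slc25a12, Slc25a13, Slc25a15, Slc25a20, Slc25a22, Slc25a34, Slc25a36, Slc25a39 and Slc25a47. The opposite order, with control 2 and miDrp1KO 1 the highest of their groups, held for 4 members (9.76%; Slc25a18, Slc25a25, Slc25a30 and Slc25a32), where 17.3% of all genes had it. Control 2 and miDrp1KO 1 are also the libraries with the lowest summed slow fibre markers of their groups. Slow fibres are known to be rich in mitochondria, but whether they have a part in this pattern was not tested. The slow fibre score was highest in miDrp1KO 2 and 3, so it is not independent of genotype. When the slow fibre score of each library was a covariate, 2 of 41 members had an unadjusted p under 0.05, where 9.97% of all genes did. These were Slc25a3 (log2 fold change −0.50, unadjusted p = 0.0232) and Slc25a12 (−0.48, unadjusted p = 0.0218), with an adjusted p of 0.455 for both from edgeR. In the same fit the standard error of Slc25a34 went from 0.76 to 0.23 and its log2 fold change to −0.062.

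**Figure D3:**
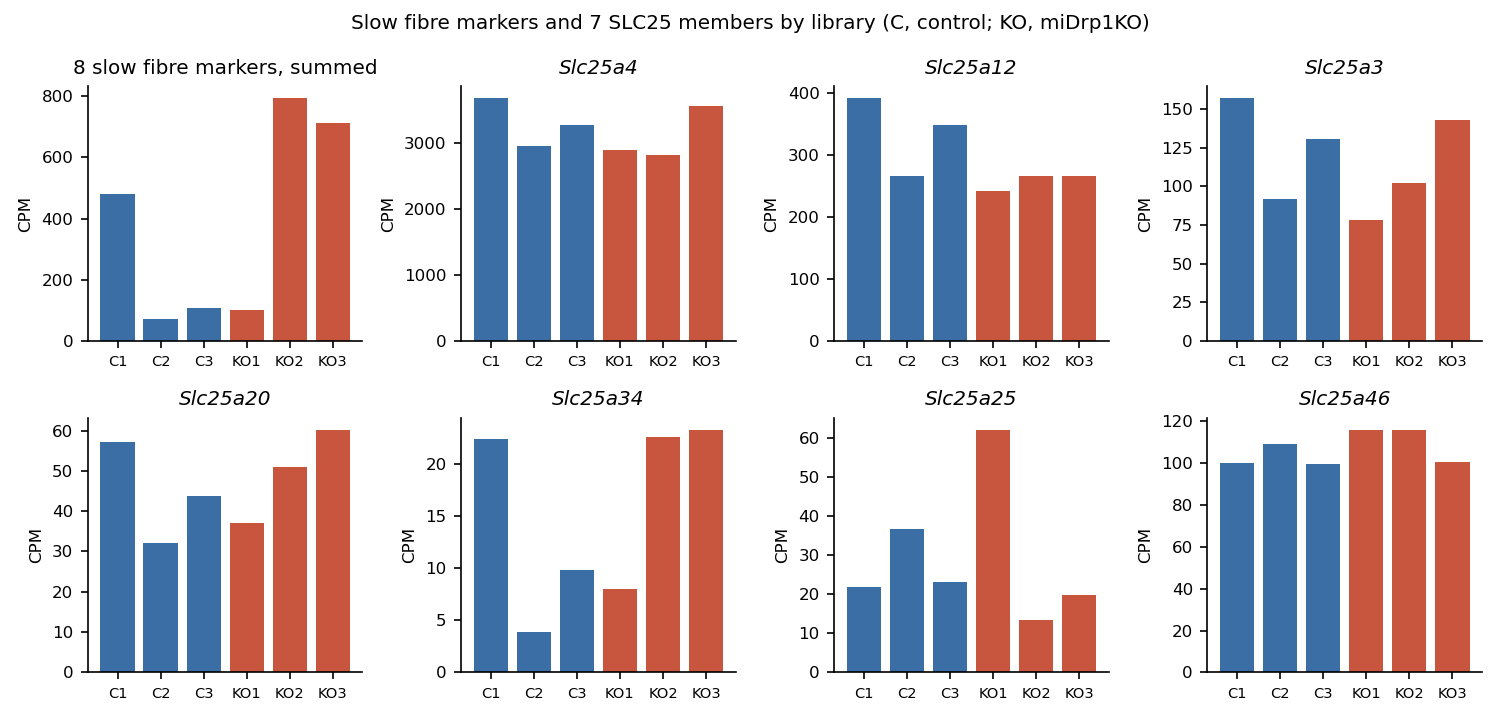
The summed level of 8 slow fibre markers and the levels of 7 SLC25 members (CPM, 1 bar per library, axes from 0) are shown for control 1 to 3 (C1 to C3) and miDrp1KO 1 to 3 (KO1 to KO3). Slc25a3, Slc25a20 and Slc25a34 are lowest in C2 among controls and in KO1 among miDrp1KO libraries, Slc25a25 is highest in both, and Slc25a46 is nearly level.

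Genes that work beside the carriers were taken from a list of 47, and 46 could be tested. The number called by edgeR was 0 (lowest adjusted p = 0.382), and 11 (23.9%) had an unadjusted p under 0.05, beside 10.9% of all genes and 0 of 41 members. Of the 46, 30 had a lower and 16 a higher mean in miDrp1KO, and the median log2 fold change was −0.10. The groups did not overlap for 8 of the 46 in the lower and 2 in the higher direction. Over all genes tested these shares were 10.3% and 7.67%, or 18.0% in both directions together. The list was written with earlier results of these data known, so these counts are a description.

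Among relatives of the carriers under other symbols, Ucp3, the uncoupling protein of skeletal muscle, had 181, 145 and 214 CPM in control and 120.3, 134 and 91.9 CPM in miDrp1KO. All 3 miDrp1KO libraries lay below all 3 controls (log2 fold change −0.64, standard error 0.21, unadjusted p = 0.0114, adjusted p = 0.382 from edgeR). Ucp2, the relative found in many cell types, had a log2 fold change of 0.30 (standard error 0.21), and Ucp1, the uncoupling protein of brown fat, was below the filter with 45 counts in all. The outer membrane channel Vdac1, through which the substrates of the carriers reach the inner membrane, had 999.5, 668 and 889 CPM in control and 568, 588 and 622 CPM in miDrp1KO. Again the miDrp1KO libraries were all below the controls (log2 fold change −0.52, standard error 0.22, unadjusted p = 0.0363, adjusted p = 0.432 from edgeR). Unlike Vdac1, the ADP/ATP and phosphate carriers of the inner membrane overlapped between the groups, but a difference between these changes was not tested.

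Crat, the carnitine acetyltransferase of the matrix, had 544, 365 and 450.0 CPM in control and 324, 288 and 290.1 CPM in miDrp1KO, without overlap (log2 fold change −0.59, standard error 0.21, unadjusted p = 0.0156, adjusted p = 0.392 from edgeR). Cpt1b, the muscle carnitine palmitoyltransferase, had a log2 fold change of −0.29 (standard error 0.38) and 6.63 CPM in control 1, its highest library. Its mean in control was only 1.52 RPKM, and overlaps of its exons with other genes were not looked up. The log2 fold change was −0.73 when the slow fibre score entered the fit (unadjusted p = 0.0162, adjusted p = 0.444 from edgeR). Gpd1, the cytosolic enzyme of the glycerol phosphate shuttle, had 264, 416 and 368 CPM in control and 301, 154 and 204 CPM in miDrp1KO. Control 1 lay within the miDrp1KO range, so the groups overlapped (log2 fold change −0.67, unadjusted p = 0.0291, adjusted p = 0.416 from edgeR). Of the 6 enzymes of the malate-aspartate and glycerol phosphate shuttles 5 had a lower mean and 1, Mdh1, a higher one. Ckmt2, the mitochondrial creatine kinase that uses the ATP exported by ADP/ATP carriers, had 2371, 638 and 1520.1 CPM in control and 925, 1978 and 2126 CPM in miDrp1KO, with control 2 and miDrp1KO 1 the low libraries (log2 fold change 0.15, standard error 0.49).

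Among users of mitochondrial iron, the heme pathway genes Alas1 and Abcb10 had log2 fold changes of −0.63 and −0.50 (unadjusted p = 0.0372 and 0.0104, adjusted p = 0.433 and 0.382 from edgeR). For Alas1 the groups overlapped, and its value was −0.29 without control 1, the highest library. The proteins that import carriers from the cytosol split: of 9, the small chaperones Timm8b and Timm10 had log2 fold changes of 0.51 and 0.49 (unadjusted p = 0.0149 and 0.0368), and Timm29, a part of the carrier translocase, of −0.38 (unadjusted p = 0.0430). Mpc2, a subunit of the mitochondrial pyruvate carrier, which is not an SLC25 protein, had a log2 fold change of 0.51 (unadjusted p = 0.0469), which was 0.30 without miDrp1KO 3 and 0.23 with the slow fibre covariate. That covariate also gave 0.26 for Timm10 and −0.40 for Gpd1. The adjusted p of Timm8b, Timm10, Timm29 and Mpc2 was 0.392, 0.432, 0.445 and 0.451 from edgeR. The fast fibre and adipocyte markers described above were lower on average in miDrp1KO, and their part in these differences was not tested.

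**Figure D4:**
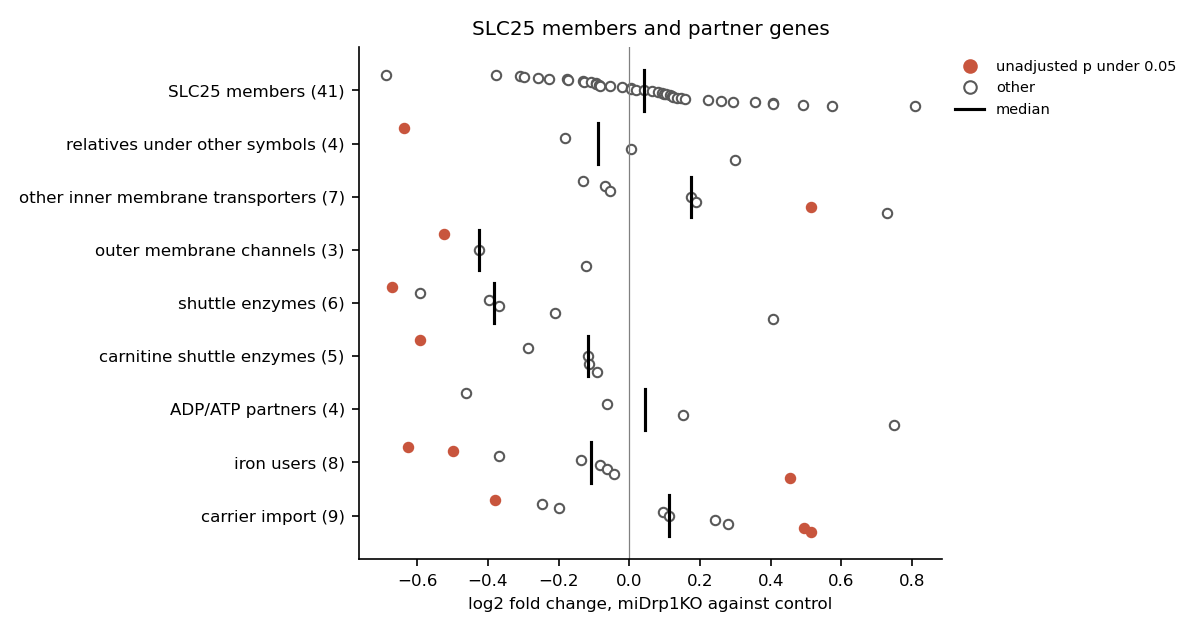
Each point is the log2 fold change of miDrp1KO against control for a gene, in the 41 tested SLC25 members (top line) and in 8 lists of partner genes, with the number tested in brackets; filled points have an unadjusted p under 0.05 and vertical bars are medians. Filled points occur for 11 partner genes and for 0 SLC25 members.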

How the data were processed

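Total RNA of quadriceps muscle was depleted of ribosomal RNA (TruSeq Stranded Total RNA, RiboZero Gold) and sequenced in pools; which library was in which pool is not given in the sources used here. FastQC was used on the reads, and Rsubread aligned them to GRCm38 and counted them per gene. The authors deposited raw counts per gene for each of 6 libraries, which they analysed with DESeq2 1.30.0. Replicates were numbered within groups in accession order (control libraries B, C and D, miDrp1KO libraries A, E and F). The labels do not say that libraries of a group are separate litters, so p-values measure the spread between these mice.

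The main test here was the one of edgeR 4.0.16 in R 4.3.3 (TMM, filterByExpr, robust quasi-likelihood fit, two-sided, Benjamini-Hochberg adjustment over 16483 genes, threshold 0.05), and the script was tested on simulated data. CPM used TMM library sizes, and RPKM used the union of GENCODE exons on GRCm38 (all 47 members had a length). Coordinates are from RefSeq GRCm38.p6 by Entrez identifier. A level of 0 is bounded by 3 counts per library, which covers counting error only. Single genes were also compared by a two-sided exact permutation test. Members, role groups, partner and marker lists were chosen with earlier results of these data known. Values in every library were given for Slc25a3, Slc25a4, Slc25a5, Slc25a11, Slc25a12 and Slc25a20, the 8 members with the highest control RPKM, any member with an unadjusted p under 0.05, and the 5 largest positive and 5 largest negative log2 fold changes. Partner genes were named where their unadjusted p was under 0.05, together with Ucp2, Ucp3, Vdac1, Ckmt2 and Cpt1b. Values of some members and of most partner genes are not reported here, though the counts over the lists include them. Motifs and the pattern over libraries were chosen after the values were seen. Alternatives were DESeq2 1.42.0, limma 3.58.1 (voom), RLE and upper quartile scaling, other filters, ribosomal RNA genes and Lars2 left out, the ribosomal RNA share or slow fibre score (mean log2 CPM of the slow markers, prior count 2) as covariates, and each library left out. Leaving out control 2 and miDrp1KO 1 together was added after the data were seen.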

Additional observations from a re-analysis of the deposited data

How the results depend on the processing

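The labels give no pairing of control with miDrp1KO mice, so no paired analysis was made. The replicate numbers used here do not pair libraries between groups. No SLC25 member was called in any of the 16 alternatives with a test, and the 18 named members had no adjusted p under 0.05 in any of them. At an unadjusted p under 0.05 there were 0 members, 2 with the slow fibre covariate (Slc25a3 and Slc25a12), 1 with control 2 and miDrp1KO 1 left out together (Slc25a12), and 0 to 2 when 1 library was left out (Slc25a12 without control 2, Slc25a21 without control 3, Slc25a21 and Slc25a25 without miDrp1KO 1). Slc25a21, below the filter with 6 libraries, entered both of those fits only through miDrp1KO 2 and 3, where it was high, so its p is no support for a difference. Of all genes 9.97% had such a p with the slow fibre covariate, 18.5% with both libraries left out, 10.5% without control 2, 5.36% without control 3 and 17.5% without miDrp1KO 1. The members' median log2 fold change of 0.04 was −0.071 with the slow fibre score and ran from −0.027 without control 2 to 0.15 without control 1. Upper quartile scaling moved the median of all genes from 0.02 to 0.11 and that of members to 0.14. Over all genes 2 were called, 113 by DESeq2, 1 by limma voom, 8 with no filter, 4 with the slow fibre score, 164 with control 2 and miDrp1KO 1 left out together, and 1 to 7 without 1 library; the cause was not tested.

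Of the 18 named members 9 changed sign somewhere. With the slow fibre score the log2 fold change was −0.17 for Slc25a11, −0.10 for Slc25a20, −0.14 for Slc25a29, −0.062 for Slc25a34, −0.15 for Slc25a39, −0.17 for Slc25a5 and −0.34 for Ckmt2. Slc25a28 was 0.00051 with upper quartile scaling, Slc25a39 −0.015 with limma voom and −0.017 with the ribosomal RNA share, and Slc25a1 0.16 with control 2 and miDrp1KO 1 left out together. When 1 library was left out, values ran from −0.18 to 0.23 for Slc25a11, −0.048 to 0.40 for Slc25a20, −0.26 to 0.056 for Slc25a28, −0.23 to 0.17 for Slc25a39, −0.19 to 0.012 for Slc25a4, −0.061 to 0.36 for Slc25a5, −0.24 to 0.66 for Ckmt2, −0.59 to 0.12 for Cpt1b, 0.17 to 0.60 for Slc25a33, −0.35 to −0.12 for Slc25a44 and 0.29 to 0.63 for Slc25a45. Dnm1l passed the threshold with DESeq2 (−0.93, adjusted p = 0.00302) and with both libraries left out (−1.03, adjusted p = 0.0463). Depth limits Slc25a21, Slc25a31, Slc25a41, Slc25a43, Slc25a48 and Slc25a54, which had 4 to 45 counts over 6 libraries.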
